A study of Homo sapiens with 96 samples.

Results

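HIST1H1A, HIST1H1B, HIST1H1C, HIST1H1D and HIST1H1E encode the replication-dependent linker histones H1 and were followed through every RNA library of the series. The 5 genes were selected by their names, with earlier results of these data known, from 23611 gene names found in any of the 10 expression tables. All 5 are listed in all 10 tables, and all 5 passed the filter on low values in each of them, which asked for 0.5 RPKM or more in 2 or more libraries. The cells are hTERT-RPE1, an established human line from retinal pigment epithelium that was immortalised with telomerase, and the sampling asks how transcripts change during S phase and after depletion of 3 long non-coding RNAs.

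RNA was sequenced from whole cells and from nuclei, each as a nascent fraction and as an input fraction. Cells that had been held for 22 h in 400 uM mimosine, a plant amino acid that stops entry into S phase, were sampled in 5 windows (named T0-2, T2-4, T4-6, T6-8 and T8-10) and were set against asynchronous cells, with 2 libraries per group and fraction. In a second set of strand-specific libraries, whose labels also call them nascent RNA, LINC00704, LUCAT1 or MIAT was depleted by LNA GapmeRs (130 to 150 pmol), short antisense molecules that make RNase H cut their target, given with Lipofectamine RNAiMax. They were set against control libraries, which received the Control LNA, at points S0, S2, S4 and S6 after synchronisation (2 libraries per group) and in asynchronous cells (3 libraries per knockdown and 2 controls). The sources used here do not give the unit of the window and point names. All libraries come from 1 cell line, and the knockdowns are transient transfections. No label says that replicates are separate cultures, so the p-values measure the spread between libraries, which may be technical.

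Linker histones bind the nucleosome where DNA enters and leaves it and help to fold chromatin. Replication-dependent H1 genes lie among the core histone genes and have no introns, and their transcripts usually end in a stem-loop bound by SLBP (stem-loop binding protein) in place of a poly(A) tail. They are transcribed when DNA is replicated, under NPAT and cyclin E with CDK2, and their transcripts are degraded when replication ends. Replacement linker histones such as H1F0 and H1FX are made outside S phase from polyadenylated transcripts.

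The 5 genes lie on chromosome 6 in the RefSeq annotation of GRCh38.p14, where they carry newer symbols. HIST1H1A (H1-1) spans chr6:26017032-26017787 on the minus strand, HIST1H1C (H1-2) chr6:26055740-26056470 on the minus strand, and HIST1H1E (H1-4) chr6:26156329-26157115 on the plus strand. HIST1H1D (H1-3) spans chr6:26234212-26234987 and HIST1H1B (H1-5) chr6:27866792-27867588, both on the minus strand. The sequences before their starts are shown because the genes moved together through the windows while HIST1H1A and HIST1H1D stayed far below the other 3 in level. The stretches are the 150 bases before each start, from RefSeq, 5′ to 3′ on the gene's own strand, and all 5 genes matched the table of promoters. They are chr6:26017788-26017937 (minus) for HIST1H1A, chr6:27867589-27867738 (minus) for HIST1H1B, chr6:26056471-26056620 (minus) for HIST1H1C, chr6:26234988-26235137 (minus) for HIST1H1D and chr6:26156179-26156328 (plus) for HIST1H1E. Capitals mark every match, on either strand, to AAACACA (the core of the H1 box, an element known from H1 promoters), CCAAT or TATAA.
HIST1H1A: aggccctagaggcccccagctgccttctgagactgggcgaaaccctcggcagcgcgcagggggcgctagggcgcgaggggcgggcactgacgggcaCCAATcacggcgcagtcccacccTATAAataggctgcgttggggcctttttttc
HIST1H1B: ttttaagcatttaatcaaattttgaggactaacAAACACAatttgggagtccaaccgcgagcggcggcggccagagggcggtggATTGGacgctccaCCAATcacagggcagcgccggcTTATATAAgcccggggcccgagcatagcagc
HIST1H1C: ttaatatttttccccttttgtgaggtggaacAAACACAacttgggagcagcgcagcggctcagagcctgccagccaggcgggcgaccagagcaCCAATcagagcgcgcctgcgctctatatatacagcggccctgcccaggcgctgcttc
HIST1H1D: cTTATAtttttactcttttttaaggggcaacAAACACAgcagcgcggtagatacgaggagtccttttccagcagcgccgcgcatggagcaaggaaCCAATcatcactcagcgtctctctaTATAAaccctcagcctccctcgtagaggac
HIST1H1E: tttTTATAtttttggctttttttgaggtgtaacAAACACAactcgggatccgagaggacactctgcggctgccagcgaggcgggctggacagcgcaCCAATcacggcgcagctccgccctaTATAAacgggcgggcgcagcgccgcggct

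AAACACA lay on the gene's strand in the printed stretch of HIST1H1B, HIST1H1C, HIST1H1D and HIST1H1E, beginning 117 bases before the start in HIST1H1B and HIST1H1E and 119 bases before it in HIST1H1C and HIST1H1D. In HIST1H1A the 300-base window (250 bases before the start to 50 after it) held AAACACA once, on the opposite strand 183 to 177 bases before the start, outside the printed stretch. All 5 genes held CCAAT on their own strand between 57 and 49 bases before the start. TATAA was found in HIST1H1A, HIST1H1B, HIST1H1D and HIST1H1E and not in HIST1H1C. Over all 35116 RefSeq promoter windows of the same length, 5.64% held AAACACA, 34.6% CCAAT and 20.4% TATAA, on either strand and with overlaps between motifs allowed. A match to these letters is not evidence of binding.

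Total reads recovered per library (from the step that 1 read makes in RPKM) were 6.39 to 28.6 M in the fraction tables, 9.11 to 23.4 M in the synchronised knockdown tables and 26.4 to 50.5 M in the asynchronous ones. The targeted RNA was lower in every knockdown library than in every control library of its table. In synchronised cells LINC00704 (listed as MANCR) had 0.550 to 1.61 RPKM in knockdown libraries against 1.89 to 4.04 RPKM in control libraries, LUCAT1 had 0.133 to 0.379 against 0.440 to 0.994 RPKM, and MIAT had 0.0718 to 0.221 against 0.243 to 0.324 RPKM. Of 12 retinal pigment epithelium markers, KRT18 (4.63 to 72.6 RPKM) and KRT8 (0.917 to 12.1 RPKM) reached the highest values. OTX2 reached 3.77 RPKM and MITF 1.72 RPKM, and the remaining markers of the 12 reached at most 0.819 RPKM (BEST1). Among these, RPE65, the visual cycle isomerase that defines the mature tissue, was listed in 3 tables at 0.225 RPKM or less. Markers of other cell types were at 0.431 RPKM or less where listed, except the erythroid gene HBB, which reached 72.4 RPKM in the whole-cell nascent table. The markers' part in the results was not tested. Several libraries stood apart before any comparison. LINC00704 knockdown libraries numbered 1 in the file headers, at S2 and S4, differed from their partners for all 5 genes. The MIAT knockdown library numbered 1 at S6 was well below its partner for HIST1H1B, HIST1H1D and HIST1H1E, less so for HIST1H1C, and close to it for HIST1H1A. The 2 whole-cell input replicates of each window also differed, as given below.

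The 3 abundant members, HIST1H1C, HIST1H1E and HIST1H1B, were among the highest values of every table, whereas HIST1H1D and HIST1H1A were low. Ranked by mean RPKM within a table, HIST1H1C stood at 3 to 6, HIST1H1E at 7 to 12 and HIST1H1B at 14 to 28. HIST1H1D ranked between 137 and 1152 and HIST1H1A between 352 and 3728. RPKM divides by gene length, so these levels can be set side by side, with the limit that the listed lengths of 642 to 681 bases are whole codons (coding length). H1 coding sequences are alike, and the sources used here do not say how reads that match several of them were counted, so the split of reads between the members is uncertain.

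Within the summed RPKM of the 5 genes, HIST1H1C held 27.7% to 67.6% of the sum over all libraries, HIST1H1D at most 2.70% and HIST1H1A at most 1.27%. In control cells the make-up differed between points. At S6 HIST1H1C held 52.4% and 51.5%, HIST1H1E 29.2% and 30.0%, and HIST1H1B 17.8% and 17.5% in the 2 libraries. At S0 HIST1H1C held 63.4% and 60.9%, HIST1H1E 24.7% and 27.8%, and HIST1H1B 11.8% and 11.3%. Between S6 and S0 the library values of these 3 genes did not overlap, with HIST1H1C taking a smaller share at S6. In nuclear input RNA the share of HIST1H1C stayed between 47.2% and 52.7% in all 12 libraries. In whole-cell input RNA it depended on the replicate: over the 5 windows HIST1H1C held 47.3% to 52.6% in replicate 1 and 27.7% to 41.6% in replicate 2, while HIST1H1E held 23.8% to 28.0% in replicate 1 and 37.9% to 41.1% in replicate 2. Asynchronous replicates of the same fraction differed little, at 43.0% and 44.4% for HIST1H1C.

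**Figure D1:**
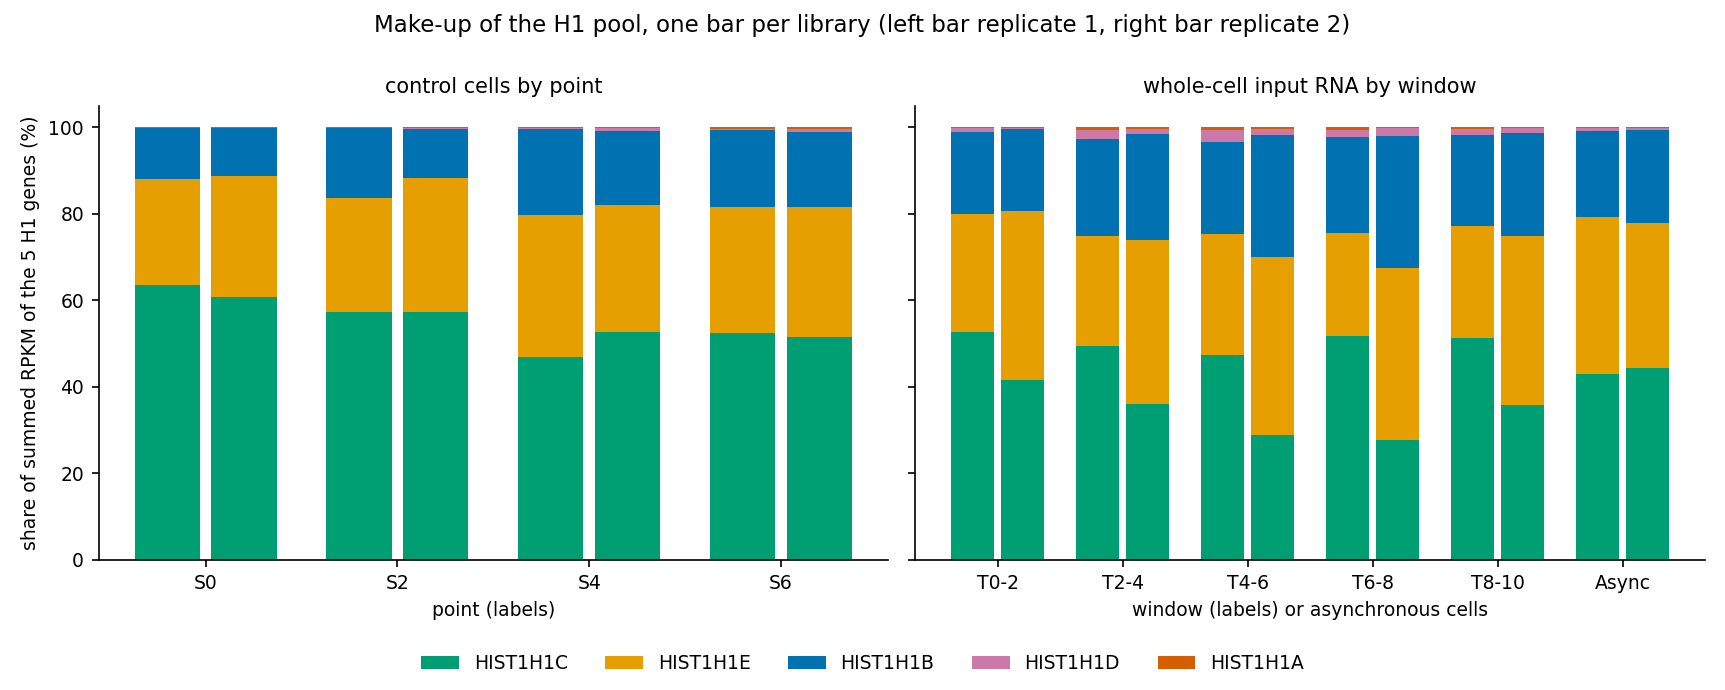
Share of each H1 gene in the summed RPKM of the 5 genes (percent, y axis) in single libraries, for control cells at S0 to S6 and for whole-cell input RNA by window (x axis, both replicates). HIST1H1C takes 52.4% and 51.5% at S6 against 63.4% and 60.9% at S0, and in whole-cell input windows replicate 2 gives it 27.7% to 41.6%, below replicate 1.

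In nuclear input RNA the H1 genes were lowest in T0-2 and were 4.71 (HIST1H1E) to 32.1 (HIST1H1D) times higher in T4-6 by the ratio of group means, with high values up to T8-10. All 5 rose in T4-6 over T0-2, a call that 0.27% of the 9633 genes tested received in that direction. Quantile normalisation left 1 of these 5 calls, and so did fitting without a filter on low values. HIST1H1C and HIST1H1A were also higher over the 5 windows together than in asynchronous cells. In bulk RNA, fewer cells that transcribe a gene and less RNA per cell cannot be told apart. Tests were made with limma on log2(RPKM + 0.25) over all genes of a table, with Benjamini-Hochberg adjusted p-values (adjusted p) and calls under 0.05, and a difference is given as log2 ± SE.

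Of the abundant genes, HIST1H1C, whose protein is also known for leaving the nucleus after DNA damage, had 649 and 576 RPKM in T4-6, against 122 and 110.2 RPKM in T0-2. Asynchronous nuclei had 217 and 207 RPKM, so both T4-6 libraries lay above and both T0-2 libraries below the asynchronous ones. The difference between T4-6 and T0-2 was 2.4 ± 0.22 (adjusted p = 0.00377). HIST1H1E, mutated in a human intellectual disability syndrome, had 306 and 357 RPKM in T4-6, against 73.3 and 67.5 RPKM in T0-2, with 117 and 147 RPKM in asynchronous nuclei. Its groups did not overlap, with a difference of 2.23 ± 0.29 (adjusted p = 0.0172). HIST1H1B had 303 and 209.7 RPKM in T4-6, against 37.2 and 39.1 RPKM in T0-2, with 90.4 and 80.6 RPKM in asynchronous nuclei. This gene, too, stood in the order T4-6, asynchronous, T0-2 in every library, and differed by 2.72 ± 0.26 (adjusted p = 0.00377).

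The low members followed with few reads. HIST1H1D had 25.6 and 7.66 RPKM in T4-6, against 0.731 and 0.304 RPKM in T0-2, with 4.75 and 2.51 RPKM in asynchronous nuclei. The groups did not overlap, although the T4-6 replicates differed from each other more than those of the other genes. The difference was 4.28 ± 0.65 (adjusted p = 0.0420), and the 257 and 10 reads behind it in T4-6 and T0-2 gave a ratio of 31.8 (95% exact interval 17 to 67.1, counting error only). HIST1H1A, a variant found in few tissues, had 7.70 and 8.12 RPKM in T4-6, against 0.644 and 1.04 RPKM in T0-2. With 0.888 and 0.687 RPKM in asynchronous nuclei, it was the 1 member whose T0-2 and asynchronous libraries overlapped. It differed by 2.92 ± 0.25 between T4-6 and T0-2 (adjusted p = 0.00305), and 121 against 16 reads gave a ratio of 9.35 (5.53 to 16.9).

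The summed RPKM of the 5 genes in nuclear input RNA was 218 to 234 in T0-2, 514 to 603 in T2-4, 1159 to 1292 in T4-6, 1018 to 1300 in T6-8 and 1097 to 1174 in T8-10, while asynchronous nuclei had 430 to 438. The sum thus stood at about the same level over the last 3 windows and overlapped between them. In T8-10 against T0-2, 4 of 5 genes were called higher (0.27% of genes were). These were HIST1H1A by 2.10 (adjusted p = 0.0143), HIST1H1B by 2.5 (0.0143), HIST1H1C by 2.27 (0.0143) and HIST1H1E by 2.28 (0.0164). HIST1H1D differed by 3.75 ± 0.65 with an adjusted p of 0.0585. The F-test among the 5 windows called the same 4 genes, against 0.218% of all genes, and gave HIST1H1D an adjusted p of 0.155. With the replicate number as a block HIST1H1D was called as well (adjusted p = 5.4e-04, 13.1% of genes called).

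Against asynchronous nuclei, the mean over the windows called 2 of 5 genes higher, HIST1H1A by 2.07 ± 0.19 (adjusted p = 0.00440) and HIST1H1C by 0.78 ± 0.17 (0.0429), where 1.96% of genes were called higher. T4-6 alone was higher than asynchronous for 3 genes, HIST1H1A by 2.98 (adjusted p = 0.00562), HIST1H1B by 1.56 (0.0401) and HIST1H1C by 1.53 (0.0274), where 0.799% of genes were called higher. T0-2 against asynchronous gave no call by limma, with 4 of 5 genes at an unadjusted p under 0.05 (19.5% of all genes were) and 2.16% of genes called lower. Replicate numbers paired these 12 libraries, and with the replicate as a block many more genes of the table were called. With that block all 5 genes were called higher over the windows (34.4% of genes called in either direction) and in T8-10 against T0-2 (22.2%). In T4-6 against asynchronous the block also called all 5, with HIST1H1D at 1.94 (adjusted p = 0.00190) and HIST1H1E at 1.33 (0.00382), where 20.3% of genes were called. The block also called T0-2 below asynchronous for HIST1H1B (adjusted p = 0.00458), HIST1H1C (0.00856), HIST1H1D (4.6e-04) and HIST1H1E (0.0108), where 35.8% of all genes were called.

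These calls rest on 2 libraries per group. Without T4-6 replicate 1, 0 of 5 genes were called between T4-6 and T0-2 and 0 between T4-6 and asynchronous, and without either T0-2 replicate or either T8-10 replicate 3 were called between T4-6 and T0-2 and 0 between T8-10 and T0-2. Without either asynchronous replicate the call count for T4-6 against asynchronous was also 0. Leaving out any 1 of the 12 libraries left at most 1 call for the windows against asynchronous and at most 2 in the F-test among windows. The direction of T4-6 against T0-2 was positive within each replicate number for all 5 genes in all 4 fractions, 40 of 40 values, of which the lowest was 0.97 on the log2 scale (HIST1H1E, nuclear nascent RNA). The share of all genes that kept 1 direction in this way was not counted.

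**Figure D2:**
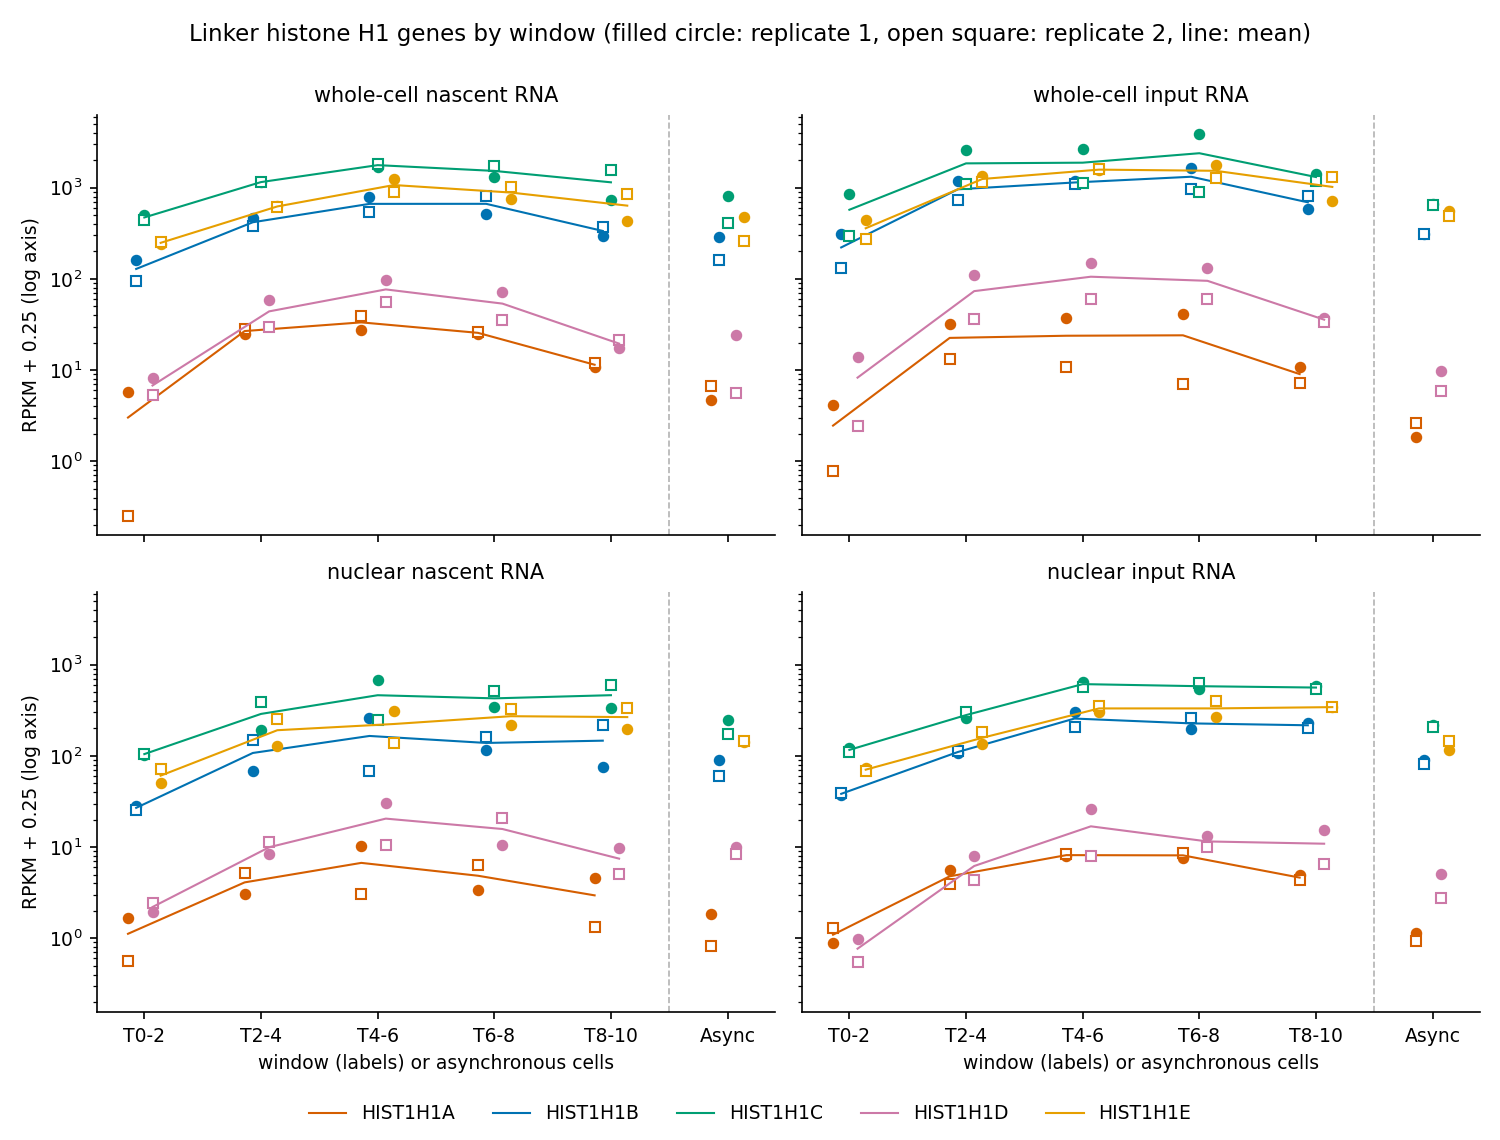
RPKM + 0.25 (y axis, log scale) of the 5 H1 genes in each window and, right of the dashed line, in asynchronous cells (x axis), 1 panel per fraction. Filled circles are replicate 1, open squares replicate 2 and lines join the means, and the lowest window mean is T0-2 in 20 of 20 gene and fraction pairs.

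The other 3 fractions had the same lowest window without a call. Over the 20 pairs of gene and fraction, the lowest window mean was T0-2 in 20, and the highest was T4-6 in 13, T6-8 in 5 and T8-10 in 2. The lowest and highest windows of all other genes were not counted. In whole-cell nascent RNA, T4-6 against T0-2 gave 0 of 5 calls by limma and 0% of 10096 genes were called, while all 5 H1 genes had an unadjusted p under 0.05 (4.22% of all genes did). In whole-cell input RNA it was 0 of 5 and 0% of 9825 genes, with 4 H1 genes at an unadjusted p under 0.05 (1.64% of all). In nuclear nascent RNA it was 0 of 5, with 0.0102% of 9784 genes called, and 5 H1 genes at an unadjusted p under 0.05 (8.06%).

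In whole-cell nascent RNA HIST1H1C had 1696 and 1844 RPKM in T4-6, against 499 and 445 RPKM in T0-2 and 813 and 414 RPKM in asynchronous cells. Here the asynchronous replicates spanned the T0-2 values, in contrast to the nuclear input. The difference between T4-6 and T0-2 was 1.91 ± 0.42 (adjusted p = 0.491). HIST1H1E had 1239 and 902 RPKM in T4-6, against 242 and 255 RPKM in T0-2, a difference of 2.09 ± 0.41 (adjusted p = 0.315). HIST1H1B had 789.9 and 541 RPKM in T4-6, against 162 and 95.3 RPKM in T0-2, a difference of 2.39 ± 0.43 (adjusted p = 0.260). For both genes the T4-6 and T0-2 libraries were apart. HIST1H1D had 97.6 and 55.3 RPKM in T4-6, against 7.96 and 5.09 RPKM in T0-2, a difference of 3.48 ± 0.67 (adjusted p = 0.309). HIST1H1A had 27.1 and 39.1 RPKM in T4-6, against 5.53 and 0 RPKM in T0-2. The 0 is a count of 0 reads, which allows up to 0.523 RPKM at 3 reads, so its fitted difference of 4.77 ± 1.06 depends on the constant added before the logarithm. By pooled reads (517 against 48) its ratio was 9.38 (95% exact interval 6.97 to 12.9).

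In whole-cell input RNA the replicates disagreed in level. HIST1H1C had 2643 and 1124 RPKM in T4-6, against 855 and 292 RPKM in T0-2 and 665 and 643 RPKM in asynchronous cells. Replicate 1 was the higher of the pair in every window for this gene, in T6-8 with 3895 against 888 RPKM. HIST1H1E was closer between replicates, with 1563 and 1597 RPKM in T4-6, against 444 and 275 RPKM in T0-2, a difference of 2.18 ± 0.38 (adjusted p = 0.849). HIST1H1B had 1188 and 1096 RPKM in T4-6, against 309.7 and 133 RPKM in T0-2, a difference of 2.49 ± 0.48 (adjusted p = 1.00). HIST1H1D had 150.5 and 60.5 RPKM in T4-6, against 13.8 and 2.19 RPKM in T0-2, and HIST1H1A had 36.7 and 10.5 RPKM, against 3.89 and 0.535 RPKM. In all 5 genes both T4-6 libraries were above both T0-2 libraries. The share of all genes with this separation was not counted. With the replicate as a block in limma, the adjusted p for T4-6 against T0-2 was lowest for HIST1H1D (0.152).

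In nuclear nascent RNA T4-6 replicate 1 was well above replicate 2 for every member. HIST1H1C had 678 and 248 RPKM in T4-6, against 103 and 106 RPKM in T0-2 and 246 and 175 RPKM in asynchronous nuclei. HIST1H1B had 262 and 68.8 RPKM in T4-6, against 28.0 and 25.4 RPKM in T0-2, and HIST1H1E had 308 and 139 RPKM, against 50.1 and 70.9 RPKM. T4-6 replicate 2 of HIST1H1B and HIST1H1E thus lay within or near the asynchronous range, which was 60.6 to 90.3 RPKM for HIST1H1B and 143 to 146 RPKM for HIST1H1E. The largest difference from T0-2 in this fraction was that of HIST1H1D, with 30.2 and 10.3 RPKM in T4-6, against 1.70 and 2.20 RPKM in T0-2 (3.04 ± 0.53, adjusted p = 0.237). Over the windows against asynchronous nuclei 0 of 5 genes were called by limma (4.5% of genes were) and 0 of 5 had an unadjusted p under 0.05 (20.3% did). The same comparison gave 0 of 5 calls in whole-cell nascent RNA (0.406% of genes called) and in whole-cell input RNA (0.0305%), with 4 genes at an unadjusted p under 0.05 in each (13.7% and 8.8% of all genes).

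**Figure D3:**
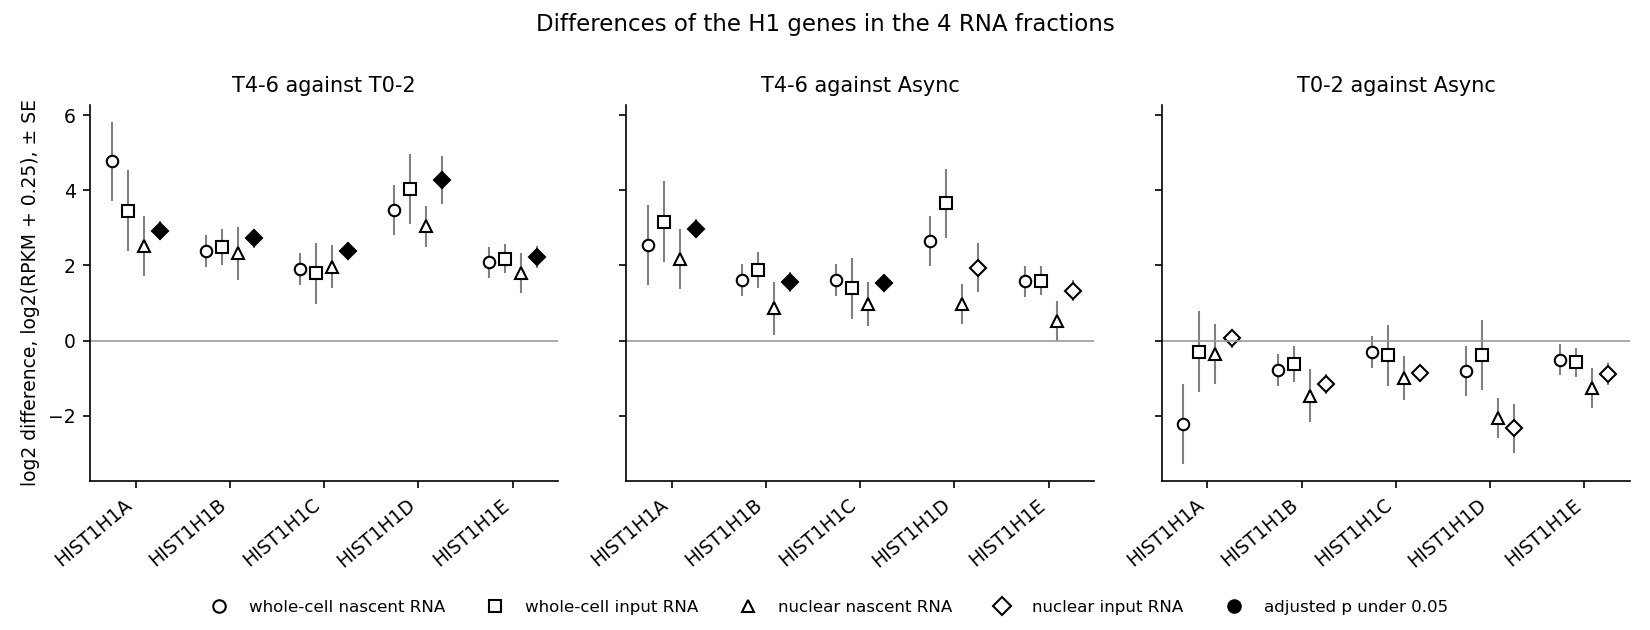
Log2 differences in RPKM + 0.25 (y axis, bars are SE) of each H1 gene (x axis) in the 4 fractions. The panels are T4-6 against T0-2, T4-6 against asynchronous and T0-2 against asynchronous. Filled symbols have an adjusted p under 0.05, and in the first panel all 20 values lie above 0, with the 5 of nuclear input RNA filled.

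Control cells released from the block also gained H1 transcripts between S0 and S6, with the low members starting from a few reads. HIST1H1C had 389 and 509 RPKM at S0, 635 and 714 at S2, 971 and 1127 at S4, and 1355 and 1673 at S6. HIST1H1E had 152 and 233 RPKM at S0, 294 and 385 at S2, 681 and 632 at S4, and 754 and 973 at S6. HIST1H1B had 72.1 and 94.3 RPKM at S0, 179 and 142 at S2, 408 and 365 at S4, and 461 and 568 at S6. For each of these 3 genes neighbouring points did not overlap, and the order S0, S2, S4, S6 held in every library. The share of all genes with this order was not counted. HIST1H1D had 0.286 and 0.346 RPKM at S0, 1.69 and 2.93 at S2, 5.69 and 13.3 at S4, and 7.07 and 21.9 at S6. HIST1H1A had 0.294 and 0.237 RPKM at S0, 0.512 and 0.482 at S2, 3.09 and 5.07 at S4, and 8.02 and 10.4 at S6. The S4 and S6 libraries of HIST1H1D overlapped, and those of HIST1H1A did not. At S0 the 2 libraries together held 6 reads of HIST1H1A and 7 of HIST1H1D, against 186 and 282 reads at S6. The resulting ratios of S6 over S0 were 33.1 for HIST1H1A (95% exact interval 14.9 to 91.3) and 43.0 for HIST1H1D (20.6 to 108).

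The differences between S6 and S0 in control cells were 4.19 for HIST1H1A, 2.63 for HIST1H1B, 1.76 for HIST1H1C, 4.49 for HIST1H1D and 2.19 for HIST1H1E. The same 8 control libraries stand in the 3 synchronised tables, so the 3 tests of these differences share their values and vary only in the spread taken from the knockdown libraries beside them. In the LUCAT1 table all 5 genes were called higher (adjusted p from 1.6e-04 to 0.0148), where 0.527% of 9870 genes were. In the MIAT table, 4 were called (0.525% of 9528 genes), with HIST1H1E at an adjusted p of 0.0828. In the LINC00704 table, 0 of 5 were called by limma (0.0741% of 9442 genes), with all 5 at an unadjusted p under 0.05 (9.08% of all genes) and adjusted p from 0.0579 to 0.130. Without the LINC00704 knockdown libraries numbered 1 at S2 and S4, an alternative chosen after seeing the data, 5 were called in that table. The F-test among control points called 4 of 5 in the LUCAT1 table (0.405% of genes), 1 of 5 in the MIAT table (0.493%) and 0 of 5 in the LINC00704 table (0%, with all 5 at an unadjusted p under 0.05 and 5.06% of all genes). Without either MIAT knockdown library at S6, all 5 were called in the MIAT table by both tests. Its 4 calls between S6 and S0 dropped to 1 without either control replicate at S0 or S6 and to 2 without either control or either knockdown library at S2. In the LUCAT1 table the 5 calls dropped to 3 without control replicate 1 at S0 or replicate 2 at S6, and the 4 of the F-test to 1 or 2 without control replicate 1 or 2 at S0. Among LINC00704 libraries 4 genes were called between S6 and S0 without either knockdown library at S4, and 2 in the F-test, and 1 was called between S6 and S0 without either at S2.

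**Figure D4:**
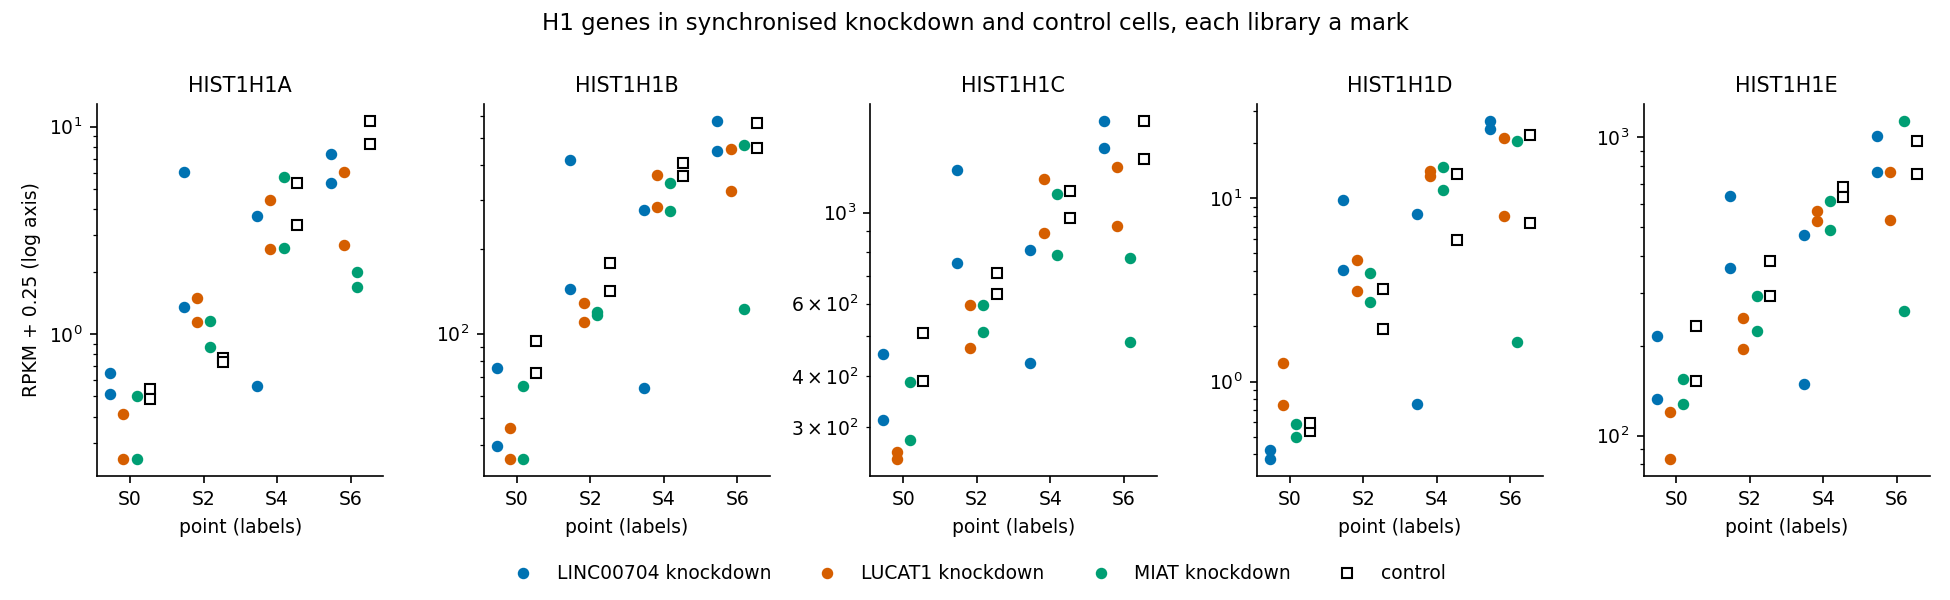
RPKM + 0.25 of each H1 gene (y axis, log scale, 1 panel per gene) at S0, S2, S4 and S6 (x axis), with the 3 knockdowns as coloured dots left of the control libraries (open squares). Control libraries of HIST1H1C have 1355 and 1673 RPKM at S6 against 389 and 509 RPKM at S0, and the LINC00704 knockdown pairs at S2 and S4 and the MIAT knockdown pair at S6 are far apart.

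Depletion of LUCAT1, an RNA first named in lung cancer cells, was accompanied by lower HIST1H1B and HIST1H1E over the 4 points. The mean over points called 2 of 5 H1 genes lower, where 8.12% of 9870 genes were called lower and 27.2% in either direction, with a median difference of 0.11 over all genes. At S0 HIST1H1B had 35.5 and 45.8 RPKM in LUCAT1 knockdown libraries, against 72.1 and 94.3 RPKM in control libraries. At S2 it had 109.6 and 128 RPKM against 179 and 142 RPKM, at S4 284 and 369 RPKM against 408 and 365 RPKM, and at S6 322 and 456 RPKM against 461 and 568 RPKM. The knockdown libraries of HIST1H1B were below the control libraries at S0, S2 and S6 and overlapped them at S4, and the fitted difference was -0.53 ± 0.16 (adjusted p = 0.0288). HIST1H1E had 83.2 and 119 RPKM in knockdown against 152 and 233 RPKM in control libraries at S0, and 194 and 247 RPKM against 294 and 385 RPKM at S2. It had 526 and 565 RPKM against 681 and 632 RPKM at S4, and 528 and 768 RPKM against 754 and 973 RPKM at S6. Its groups overlapped at S6 alone, and the difference was -0.56 ± 0.17 (adjusted p = 0.0303).

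The other 3 genes were not called in the LUCAT1 table. HIST1H1C differed by -0.41 ± 0.15 (adjusted p = 0.0613), HIST1H1A by -0.35 ± 0.20 (0.190) and HIST1H1D by 0.50 ± 0.29 (0.196). Scaling each library to its median added a call for HIST1H1C. Quantile normalisation, which gives all libraries the same set of values, left 0 of 5 calls and turned HIST1H1C to 0.19. The 2 calls were also lost without any 1 of 7 libraries: control replicate 2 at S0, replicate 1 at S4 or replicate 2 at S6, or the knockdown library numbered 2 at S0, 2 at S2, 1 at S4 or 1 at S6. A single call was left without either control replicate at S2 or without the knockdown library numbered 3 at S4, and 3 were made without the knockdown library numbered 2 at S6. The test of whether the LUCAT1 knockdown effect differed among points called 0 of 5 genes and 0% of all genes, with HIST1H1A alone at an unadjusted p under 0.05 (0.395% of all genes).

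MIAT depletion gave 0 of 5 calls by limma over the 4 points, where 7.63% of 9528 genes were called and 24.7% had an unadjusted p under 0.05, as did 3 H1 genes. HIST1H1C differed by -0.55 ± 0.16 (adjusted p = 0.0526), HIST1H1A by -0.65 ± 0.19 (0.0627), HIST1H1B by -0.66 ± 0.25 (0.134), HIST1H1E by -0.43 ± 0.26 (0.327) and HIST1H1D by -0.07 ± 0.44 (0.941). Much of the spread was at S6. There HIST1H1E had 261 and 1136 RPKM in MIAT knockdown libraries, against 754 and 973 RPKM in control libraries, so that the 2 knockdown libraries lay on both sides of the controls. HIST1H1C had 483 and 776 RPKM at S6 in knockdown libraries, against 1355 and 1673 RPKM in control libraries, and HIST1H1A had 1.44 and 1.75 RPKM, against 8.02 and 10.4 RPKM. For these genes both knockdown libraries were below both controls. The MIAT knockdown library numbered 2 at S6 also had the lowest share of HIST1H1C among all knockdown libraries, 32.2%, and the highest of HIST1H1E, 47.2%. Without that library 3 genes were called lower, and without the one numbered 1 none was, with HIST1H1D at 0.38. The count was 1 without control replicate 1 at S0, and 2 without the knockdown library numbered 3 at S0 or S4. No difference of the effect among points was called (0% of genes), with HIST1H1A at an unadjusted p of 0.00152 and 1.15% of all genes under 0.05.

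Between S6 and S0 within MIAT knockdown cells all 5 genes had a higher mean at S6. By limma all 5 had an unadjusted p under 0.05 (3350 of 9528 genes did). Of the 5, 2 were called higher (1.09% of genes were), HIST1H1A by 2.37 (adjusted p = 0.0178) and HIST1H1B by 2.33 (0.0426). HIST1H1A had 27 reads at S6 against 2 at S0, with 1 of the S0 libraries at 0, so its fitted value depends on the added constant, and the ratio of pooled reads was 15.5 (95% exact interval 3.88 to 134). Without the MIAT knockdown library numbered 1 at S6 all 5 genes were called higher. Without the one numbered 2 at S6 or either knockdown library at S0 none was. The count was 1 without either control library at S0, S2 or S6 or either knockdown library at S2, and it was 3 without either library of the control or the knockdown at S4. Within LUCAT1 knockdown cells all 5 were called higher (0.314% of genes were), by 2.10 (HIST1H1C) to 3.75 (HIST1H1D). HIST1H1A had 98 reads at S6 against 2 at S0 (ratio 38.2, 95% exact interval 10.3 to 320.1). There were 3 calls left without the knockdown library numbered 3 at S0 and 2 without the one numbered 2 at S6. Within LINC00704 knockdown cells all 5 genes also had a higher mean at S6. By limma all 5 had an unadjusted p under 0.05 (602 of 9442 genes did). Only 1 was called higher, HIST1H1D by 5.98 (adjusted p = 0.0340, 0.0212% of genes). It had 23.8 and 26.2 RPKM at S6, against 0.171 and 0.128 RPKM at S0, values below the added constant, which therefore sets much of the fitted difference. The 521 reads at S6 and 3 at S0 gave a ratio of 161 (95% exact interval 54.7 to 782). All 5 genes were called higher without either knockdown library at S4 or without both libraries numbered 1 at S2 and S4. The call of HIST1H1D was lost without either library of the control or the knockdown at S0, either control library at S2 or either knockdown library at S6.

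LINC00704 depletion gave 0 of 5 calls over the points by limma, 0.0212% of 9442 genes being called and 16.5% having an unadjusted p under 0.05, which none of the 5 H1 genes did. Differences lay between -0.38 ± 0.32 for HIST1H1B and -0.01 ± 0.36 for HIST1H1A. At S2 HIST1H1B had 419 and 145 RPKM in the knockdown libraries numbered 1 and 3, against 179 and 142 RPKM in control libraries. At S4 it had 63.9 and 277 RPKM in those numbered 1 and 2, against 408 and 365 RPKM. The summed H1 RPKM was 2340 and 1266 in the 2 knockdown libraries at S2, against 1110 and 1245 in control libraries, and 643 and 1568 at S4, against 2069 and 2143. Both knockdown libraries were thus above both controls at S2 and below both at S4 in this sum, with the library numbered 1 the farther from them at each point. At S6 the 2 groups overlapped for HIST1H1B (448 and 576 RPKM in knockdown, 461 and 568 RPKM in control libraries). The directions of HIST1H1A and HIST1H1D turned positive without both libraries numbered 1 (0.065 and 0.27), and no call was gained.

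In asynchronous cells every knockdown library had less of every H1 gene than both control libraries in all 3 tables. The 2 control libraries are the same in the 3 tables, so these are not 3 independent observations. How many of all genes were lower in every knockdown library was not counted. MIAT depletion lowered all 5 genes, in a table where 31.1% of 9200 genes were called lower, 43.7% in either direction, and the median difference over all genes was -0.12. HIST1H1D had 15.95, 19.3 and 19.8 RPKM in MIAT knockdown libraries, against 42.5 and 42.9 RPKM in control libraries, and fell by 1.21 ± 0.13 on the log2 scale (adjusted p = 9.9e-04). HIST1H1B had 216, 259.6 and 263 RPKM, against 515 and 564 RPKM in control libraries, and fell by 1.13 ± 0.13 (adjusted p = 0.00125). These 2 genes stood farthest from the median of the table. HIST1H1A had 2.45, 1.72 and 1.44 RPKM in knockdown libraries, against 3.39 and 3.67 RPKM in control libraries, and fell by 0.86 ± 0.19 (adjusted p = 0.0106). HIST1H1E had 361, 403 and 379 RPKM, against 578 and 671 RPKM in control libraries, and fell by 0.71 ± 0.12 (adjusted p = 0.00397). HIST1H1C had 521, 634 and 582 RPKM, against 835 and 945 RPKM in control libraries, and fell by 0.62 ± 0.12 (adjusted p = 0.00796). Quantile normalisation left 3 calls in this table and put HIST1H1C at 0.043, and 4 calls were left without either control library.

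The differences after LUCAT1 depletion in asynchronous cells were larger and were not called. HIST1H1D had 21.5, 12.4 and 12.9 RPKM in LUCAT1 knockdown libraries, against 44.0 and 44.4 RPKM in control libraries, a difference of -1.53 ± 0.28 (adjusted p = 0.0774). HIST1H1B had 267, 189 and 194 RPKM, against 534 and 584 RPKM in control libraries, a difference of -1.38 ± 0.22 (adjusted p = 0.0699). Replicate 1 was the highest knockdown library for both genes. HIST1H1C had 517, 399 and 332 RPKM, against 866 and 979 RPKM in control libraries, a difference of -1.17 ± 0.24 (adjusted p = 0.0985). HIST1H1E had 367, 291 and 239 RPKM, against 599 and 695 RPKM in control libraries, a difference of -1.13 ± 0.24 (adjusted p = 0.102). HIST1H1A had 1.31, 1.76 and 1.35 RPKM, against 3.52 and 3.80 RPKM in control libraries, a difference of -1.19 ± 0.19 (adjusted p = 0.0699). The count was 0 of 5, with 0.209% of 9550 genes called, all of them higher, and 5 of 5 at an unadjusted p under 0.05 (22% of all genes). Without replicate 1 of the knockdown all 5 were called, with adjusted p from 3.0e-04 for HIST1H1D to 0.00243 for HIST1H1A, on 2 libraries per group. The share of all genes called in that fit is not given here, so these 5 calls cannot be set against it.

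LINC00704 depletion in asynchronous cells gave the smallest differences for HIST1H1B, HIST1H1C, HIST1H1D and HIST1H1E. For HIST1H1A the ratio of knockdown to control means was 0.528, about the 0.529 after MIAT depletion. HIST1H1A had 1.96, 1.57 and 2.08 RPKM in LINC00704 knockdown libraries, against 3.41 and 3.66 RPKM in control libraries, a difference of -0.85 ± 0.17 (adjusted p = 0.158). HIST1H1D had 28.0, 24.3 and 27.2 RPKM, against 42.7 and 42.8 RPKM in control libraries, a difference of -0.69 ± 0.15 (adjusted p = 0.180). The other 3 genes differed by -0.58 (HIST1H1E), -0.55 (HIST1H1B) and -0.39 (HIST1H1C). None of the 5 was called by limma (0.0557% of 8975 genes were) and all 5 had an unadjusted p under 0.05 (12.4% of all genes did). The authors' deposited tables for the asynchronous cells give log2 fold changes and FDR values for the same libraries. In the authors' deposited table for LUCAT1 the 5 genes have log2 fold changes from -1.5 to -1.11, with FDR values from 3.0e-08 to 0.00194. In the authors' deposited table for MIAT the values run from -1.21 to -0.62, with FDR values from 9.8e-15 to 7.1e-05, and in the authors' deposited table for LINC00704 from -0.89 to -0.39, with FDR values from 0.0886 to 0.628.

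**Figure D5:**
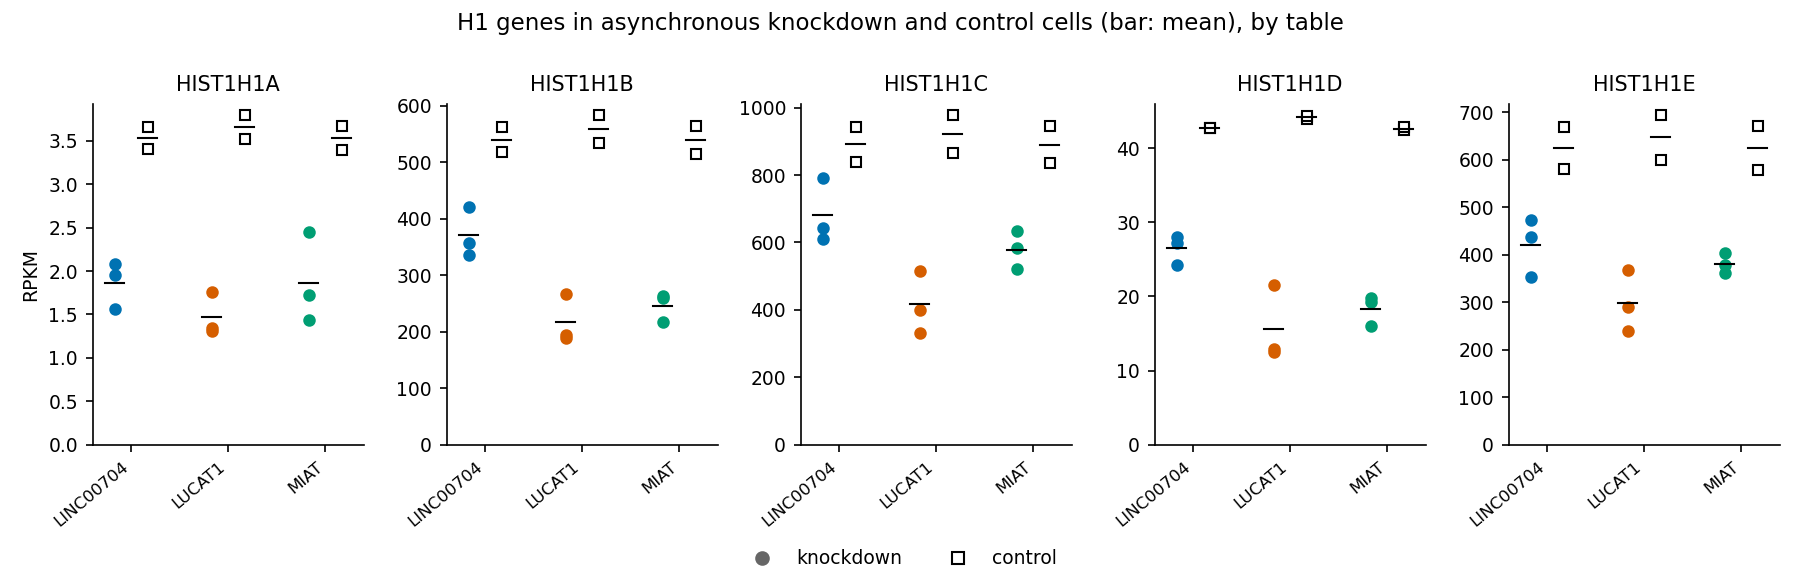
RPKM (y axes from 0) of the 5 H1 genes in asynchronous cells, with 3 knockdown libraries left of 2 control libraries in each of the 3 tables. All knockdown dots lie below both control dots of their table, as for HIST1H1D with 15.95 to 19.8 RPKM after MIAT depletion against 42.5 and 42.9 RPKM.

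Replacement linker histones outside the clusters, H1F0 and H1FX, were set beside the 5 H1 genes. H1F0, known to accumulate in quiescent and differentiated cells, was listed at 0 RPKM in both T0-2 and both asynchronous nuclear input libraries. In the same fraction it had 0.0425 and 0.0923 RPKM in T2-4, 0.246 and 0.448 in T4-6, 0.433 and 0.662 in T6-8, and 0.717 and 0.749 in T8-10. It was higher over the windows than in asynchronous nuclei (1.04 ± 0.18, adjusted p = 0.0203) and in T8-10 than in T0-2 (1.97, adjusted p = 0.0143), fits that depend on the added constant. H1F0 reached the 0.5 RPKM of the filter only in libraries of T6-8 and T8-10, so its direction in both tests was fixed in advance. Its mean was highest in T8-10, as was that of HIST1H1E, while the other 4 H1 genes had theirs in T4-6 in this fraction. H1FX had 9.69 to 10.5 RPKM in asynchronous MIAT knockdown libraries, against 15.2 to 18.1 RPKM in control libraries, and fell by 0.69 ± 0.11 (adjusted p = 0.00408, against 31.1% of genes called lower). It had 8.02 to 10.7 RPKM in asynchronous LUCAT1 knockdown libraries, against 15.7 to 18.7 RPKM in control libraries (-0.84 ± 0.20, adjusted p = 0.119), and 10.1 to 13.2 RPKM in LINC00704 knockdown libraries, against 15.2 to 18.2 RPKM in control libraries (-0.54 ± 0.19, adjusted p = 0.309). As with the 5 H1 genes, these groups did not overlap, and the control libraries are shared.

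Core histone genes of the replication-dependent clusters were counted beside the linker histones. Here and in the next paragraph, rose and fell mean called higher and called lower. In nuclear input RNA 20 of 41 tested core genes rose in T4-6 over T0-2, where 0.27% of all genes did, with a median difference of 2.20 over the 41 and 0.07 over all genes. After MIAT depletion in asynchronous cells 31 of 46 fell and 1 rose, with a median of -0.75 (-0.12 over all genes, of which 31.1% fell). After LUCAT1 depletion 0 of 47 were called in asynchronous cells (median -1.24, and -0.10 over all genes, with 44 at an unadjusted p under 0.05, as 22% of all genes had). In synchronised cells 5 of 43 fell after LUCAT1 depletion, a share near the 8.12% of all genes that fell (median -0.28, and 0.11 over all genes). After MIAT depletion 13 of 43 fell, against 2.79% of all genes (median -0.78, and -0.03 over all genes). LINC00704 depletion called 0 of 44 in synchronised cells and 0 of 47 in asynchronous cells, with 3 and 20 at an unadjusted p under 0.05, where 16.5% and 12.4% of all genes had one. Other scalings were not run for these and the following lists.

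Factors that act on histone genes and transcripts mostly did not pass the test. CCNE1, the cyclin E that activates CDK2 at the start of S phase, was lower in T8-10 than in T0-2 in nuclear input RNA (-1.73, adjusted p = 0.0337, 0.145% of genes called lower), and CCNE2 was lower in nuclear nascent RNA (-2.25, adjusted p = 0.00986, 0.245%). These were the only called genes of 14 tested in those 2 comparisons. In T0-2 against asynchronous nuclear input, CCNE1 was higher (1.12, adjusted p = 0.0496, 1.55% of genes called higher). In synchronised LUCAT1 knockdown cells 8 of 15 factors rose, led by SLBP (0.77), CCNE2 (0.72) and the decay helicase UPF1 (0.61), where 19% of all genes rose. In asynchronous MIAT knockdown cells 4 of 13 fell, a share near the 31.1% of all genes that fell, with UPF1 at -0.61, the processing scaffold SYMPK at -0.47 and SLBP at -0.35. Of 4 linker histone chaperones, SET (-1.20) and NPM1 (-1.11) were lower over the windows than in asynchronous nuclei in nuclear input RNA (2.61% of genes called lower) and in nuclear nascent RNA (-1.28 and -1.15, 2.54% of genes). NASP (-0.57) and PTMA (-0.50) fell in asynchronous MIAT knockdown cells, in the table where 31.1% of all genes did.

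The genes most alike to each member were sought over the 24 group means of the 4 fraction tables, among 8491 genes tested in all 4, by Pearson r of log2 values centred within each table. The points share libraries, tables and scaling, so r is a description. HIST1H1B, HIST1H1C and HIST1H1E were most alike to each other, each pair at an r of 0.99. The next in line for them were the core histone genes HIST1H4H, HIST1H2AE, HIST1H2BE and HIST2H2AB, between 0.96 and 0.98. The member HIST1H1D was among the 5 most alike of HIST1H1B only (0.96), with 0.93 to HIST1H1C and 0.94 to HIST1H1E. HIST1H1D came closest to HIST1H1B and HIST1H4H, both at 0.96. HIST1H1A came closest to HERC6 and HIST1H2BB, both at 0.94, and it was the 1 member with a gene outside the histone families among its 5 most alike.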

How the data were processed

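The authors deposited 10 tables with RPKM per gene and library, and the 3 asynchronous tables also hold the authors' log2 fold changes and FDR values. STAR 2.5.3, featureCounts 1.6.1, edgeR, HOMER 4.10.3 and the build hg38 appear for each of the 96 samples in the submitters' processing notes, without a role or order, and the 5 chromatin samples were not analysed here. The gene annotation, poly(A) selection and any removal of low genes before deposit are not stated in the notes. Knockdown columns carry numbers from the file headers that differ from those in the sample titles, so they name a library within its group and pair nothing.

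From the RPKM values, log2(RPKM + 0.25) was fitted per table with limma 3.58.1 (R 4.3.3, empirical Bayes with a mean trend) over genes that reached 0.5 RPKM in 2 or more libraries, with Benjamini-Hochberg adjustment over the whole table and calls at an adjusted p under 0.05. All libraries of a table shared 1 estimate of the spread. The steps that 1 read makes in RPKM gave whole reads, and all 555 member values lay within 0.2 of a whole read. Ratios of pooled reads have exact 95% intervals, which cover counting error only. Fits were tested on simulated data. Same-numbered replicates of nuclear input RNA deviated together (correlations of 0.63 to 0.86 in 15 of 15 pairs of groups), so values with the replicate as a block stand beside those results. The 5 genes and the other gene lists were chosen with earlier results of these data known. The genes named beside the 5 members follow a fixed rule: other linker histones, at most 3 called factors per direction and comparison, called chaperones, and the 5 most alike genes. Other pseudocounts, filters, scalings, the replicate block and leaving out each library were tried. Sequences are from RefSeq, GRCh38.p14.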

Additional observations from a re-analysis of the deposited data

Results flagged for a closer look

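For 8 pairs of gene and fraction, both T0-2 libraries were below and both T4-6 libraries above the 2 asynchronous libraries, so that the windows moved to opposite sides of asynchronous cells. On the log2 scale the T4-6 values exceeded the T0-2 values in nuclear input RNA by 2.72 for HIST1H1B, 2.4 for HIST1H1C, 4.28 for HIST1H1D and 2.23 for HIST1H1E. In nuclear nascent RNA the difference was 1.97 for HIST1H1C and 3.04 for HIST1H1D. For HIST1H1E it was 2.09 in whole-cell nascent RNA and 2.18 in whole-cell input RNA. Whether the 2 opposite shifts from asynchronous cells differ between genes or fractions was not tested. It was also not counted how many of all genes had this pattern.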

How the results depend on the processing

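The counts below are H1 genes called, of 5. The share of all genes called under each setting is not given here, and it can move with the setting. In nuclear input RNA the F-test among windows called 0.218% of all genes without the replicate block and 13.1% with it. The counts thus show how the H1 calls moved, not how they compare with other genes. The replicate block gave 5 for the windows against asynchronous in nuclear input RNA (2 without it), 1 in whole-cell input RNA (0), 2 for S6 against S0 in control cells of the LINC00704 table (0), and 3 each for LINC00704 and LUCAT1 depletion in asynchronous cells (0 each). Outside nuclear input RNA same-numbered libraries deviated together only in part. In whole-cell input RNA 10 of 15 pairs of groups correlated above 0.1, with a median of 0.90 and a lowest value of -0.56. On the main axis of variation between its libraries (72.7% of the variance), replicate 1 of each window lay at 49.8 to 65.7. Replicate 2 of each window lay at -63.0 to -41.7, and the asynchronous replicates at -15.0 and 4.87. The block was fitted over windows and asynchronous libraries together, and a block over the windows alone was not fitted. In both nascent fractions and the synchronised tables not all pairs correlated above 0.1 either, and the asynchronous tables had 1 pair each. In the asynchronous tables no control carries number 3, so the block takes knockdown replicate 3 out of the difference there. No paired analysis was possible for the knockdown effect at the synchronised points because the knockdown columns carry no number from the labels. Quantile normalisation gave, in nuclear nascent RNA, 1 in the F-test among windows, 2 for T4-6 and 3 for T8-10 against T0-2. In nuclear input RNA it gave 1 for the windows, 0 in the F-test, 1 for T4-6 and 2 for T8-10 against T0-2. It gave 0 for LUCAT1 depletion at the points, 3 for S6 against S0 in the LUCAT1 table, 1 in the MIAT table and 3 for MIAT depletion in asynchronous cells. Without a filter on low values, nuclear input RNA had 1 for the windows, 1 in the F-test, 1 for T4-6 and 2 for T8-10 against T0-2, LUCAT1 depletion 0, and S6 against S0 had 3 in the LUCAT1 and 2 in the MIAT table. Median scaling gave 1 for the windows in nuclear input RNA and 1 for S6 against S0 in the LINC00704 table. A pseudocount of 1 gave 2 for synchronised MIAT depletion. Without both LINC00704 libraries numbered 1 at S2 and S4, chosen after seeing the data, control points had 3 and S6 against S0 had 5. Leaving out 1 library gave 0 to 1 in whole-cell nascent RNA (F-test, T4-6, T8-10 against T0-2 and T0-2 against asynchronous), 0 to 1 in nuclear nascent RNA (T0-2 against asynchronous), and in nuclear input RNA 0 to 1 for the windows, 0 to 2 in the F-test, 0 to 4 for T4-6 against T0-2, 0 to 5 for T8-10 against T0-2 and 0 to 2 for T4-6 against asynchronous. In the LINC00704 table, it gave 0 to 2 (control points), 0 to 4 (S6 against S0 in control) and 0 to 5 (in knockdown). In the LUCAT1 table it gave 0 to 3 (depletion), 1 to 4, 3 to 5 and 2 to 5, and in the MIAT table, 0 to 3, 1 to 5, 1 to 5 and 0 to 5, in the same order. In asynchronous cells it gave 0 to 5 for LUCAT1 and 4 to 5 for MIAT. Single genes also turned direction. Under quantile normalisation HIST1H1C was at 0.078 in T0-2 against asynchronous (whole-cell input), 0.13 (LINC00704), 0.19 (LUCAT1) and 0.019 (MIAT) at the points, -0.25 for S6 against S0 in MIAT knockdown, and 0.038 (LINC00704) and 0.043 (MIAT) in asynchronous cells. HIST1H1D was at 0.15 over nuclear nascent windows and 0.10 after LINC00704 depletion, HIST1H1A at 0.022 after LINC00704 depletion, and HIST1H1E at 0.050 (MIAT, points) and 0.00216 (LUCAT1, asynchronous). After LINC00704 depletion HIST1H1A was at 0.010 with a pseudocount of 0.1, HIST1H1D at 0.11 with a pseudocount of 1, and they were at 0.065 and 0.27 without both libraries. When 1 library was left out, T0-2 against asynchronous ran from -4.49 to 0.039 (HIST1H1A), -0.79 to 0.19 (HIST1H1C) and -1.87 to 0.23 (HIST1H1D) in whole-cell nascent RNA, from -1.5 to 0.90, -1.16 to 0.39 and -1.64 to 0.89 for the same genes in whole-cell input RNA, and for HIST1H1A from -1.14 to 0.44 (nuclear nascent) and from -0.21 to 0.32 (nuclear input). T4-6 against asynchronous in nuclear nascent RNA ran from -0.11 to 1.82 (HIST1H1B) and -0.052 to 1.10 (HIST1H1E), and the windows from -0.28 to 0.021 (HIST1H1D). LINC00704 depletion ran from -0.35 to 0.33 (HIST1H1A) and -0.44 to 0.42 (HIST1H1D), and MIAT depletion from -0.52 to 0.38 (HIST1H1D). The cause of these changes was not tested. Few reads limit HIST1H1A and HIST1H1D, with 16 and 10 in nuclear input T0-2, 6 and 7 in control S0, and 2 (HIST1H1A, LUCAT1 and MIAT knockdown) and 3 (HIST1H1D, LINC00704 knockdown) at S0.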
